A study of Mus musculus with 6 samples.

Results

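Receptor tyrosine kinases are the cell surface receptors that carry their own tyrosine kinase domain, and Kit, which encodes the sort marker CD117, is one of them. Here 57 genes of this family, given as a list of names and matched by symbol to the rows of the count table, were followed among 52636 gene rows in medullary thymic epithelial cells (mTEC). The libraries came from thymi of C57BL/6 mice 6 weeks of age, for which the sources name no transgene or treatment, and all cells bound the lectin UEA1, had low MHCII and lacked Sca1 and CD63 on their surface. CD80 is given as negative in the labels and as low in the study's description of the gate. The 3 tuft-like libraries hold cells of that gate with CD117 and CD66a on their surface, and the 3 non-tuft-like libraries hold cells with neither. The sources do not say whether the 3 libraries of a group came from separate animals, so that tests measure the spread between libraries, which may be technical. The question put to the libraries was whether the cells without CD117 and CD66a share transcripts with tuft-like mTEC.

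In this family a ligand bound outside the cell brings receptor chains together, the kinase domains phosphorylate each other, and adaptor proteins that recognise the phosphorylated tyrosines pass the signal to the Ras, phosphoinositide 3-kinase and phospholipase C pathways. Kit is the receptor for stem cell factor and is best known from mast cells, melanocytes, germ cells and early blood progenitors, where signalling through it sustains survival and growth. Thymic epithelium is known to depend on other members too, since fibroblast growth factors acting through Fgfr2 support its growth. Some members, among them Erbb3, Ephb6, Ptk7 and Ryk, have a kinase domain with little or no activity and work with partner receptors.

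The promoters of the 4 members on which the results turn, which are Kit and those that passed the test, are printed here so that the start of each gene can be compared. They are RefSeq windows of mouse build GRCm38.p6, the same reference genome as mm10, from 250 bases before to 50 bases after the annotated start, read 5′ to 3′ on the strand of the gene. Capitals mark the GC box, searched as GGGCGG and, on the other strand, CCGCCC. They follow in the order Kit at chr5:75574737-75575036 on the plus strand, Tek at chr4:94739039-94739338 on the plus strand, Axl at chr7:25788684-25788983 on the minus strand and Erbb2 at chr11:98412234-98412533 on the plus strand.
Kit: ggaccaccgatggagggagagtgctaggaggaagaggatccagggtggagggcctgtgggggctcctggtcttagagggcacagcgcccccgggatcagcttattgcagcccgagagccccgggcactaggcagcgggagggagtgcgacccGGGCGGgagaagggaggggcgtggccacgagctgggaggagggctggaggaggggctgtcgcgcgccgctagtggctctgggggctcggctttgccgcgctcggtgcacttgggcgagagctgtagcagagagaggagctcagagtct
Tek: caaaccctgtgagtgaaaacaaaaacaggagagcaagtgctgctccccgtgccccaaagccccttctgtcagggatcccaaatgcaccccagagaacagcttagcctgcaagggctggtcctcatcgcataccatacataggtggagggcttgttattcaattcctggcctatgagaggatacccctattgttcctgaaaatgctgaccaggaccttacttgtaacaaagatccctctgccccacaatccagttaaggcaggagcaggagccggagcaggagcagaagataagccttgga
Axl: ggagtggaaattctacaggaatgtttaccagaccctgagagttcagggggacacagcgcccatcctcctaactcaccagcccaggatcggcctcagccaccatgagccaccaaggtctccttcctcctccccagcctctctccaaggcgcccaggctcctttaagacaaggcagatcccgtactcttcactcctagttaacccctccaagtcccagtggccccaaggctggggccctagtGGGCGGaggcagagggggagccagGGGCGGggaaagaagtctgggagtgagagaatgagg
Erbb2: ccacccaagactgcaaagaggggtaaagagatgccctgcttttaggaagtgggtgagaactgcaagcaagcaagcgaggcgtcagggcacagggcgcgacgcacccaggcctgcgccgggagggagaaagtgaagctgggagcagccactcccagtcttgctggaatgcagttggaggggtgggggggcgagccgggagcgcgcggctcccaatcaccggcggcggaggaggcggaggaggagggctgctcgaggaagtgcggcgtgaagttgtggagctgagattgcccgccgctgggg
The windows differed in composition. That of Kit was 69.0% G and C with 20 CpG pairs and 1 GC box, and that of Erbb2 was 66.0% G and C with 21 CpG pairs and no GC box in these letters. The Axl window was 60.3% G and C with 6 CpG pairs and 2 GC boxes, and the Tek window was 52.0% G and C with 3 CpG pairs. Windows were matched for 48 members, 59 windows in all. The GC box was in 40 of them, against 35.7% of all 32851 windows in the RefSeq table. The octamer ATTTGCAT (ATGCAAAT on the other strand), the sequence bound by POU domain proteins such as the tuft cell regulator Pou2f3, was in 1.74% of all windows and in 0 of the 59. The TATA box, TATAAA on either strand, was in 13.6% of all windows and in those of 4 members, Ddr2, Flt1, Lmtk2 and Ryk. These are matches of letters in short windows and not measured sites.

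Read counts per gene were scaled by TMM and put through edgeR's quasi-likelihood test, and differences are log2 fold changes of tuft-like over non-tuft-like mTEC with an approximate standard error (SE). Levels are CPM, the count of a gene over the TMM-scaled library total. A gene is called where the false discovery rate (FDR) over all tested genes was under 0.05. The libraries held between 20097617 and 48369825 counts on genes, at which 3 counts correspond to 0.0639 to 0.124 CPM. All 7 tuft cell markers looked at were called higher in the tuft-like libraries, although Ceacam1, which encodes the sort marker CD66a, is one of them and is not independent of the sort. Lower calls were made for 4 of 6 markers of mature mTEC. The 6 epithelial markers summed to between 5332 and 11810 CPM in all 6 libraries, and 1 of them, Krt14, was called lower. Of all genes tested 1.16% were called higher and 0.951% lower. The libraries differed in reads that fell in no annotated gene. These made up 34.4%, 36.6% and 52.5% of all reads in non-tuft-like replicates 1, 2 and 3 in turn and 61.6%, 47.6% and 19.7% in the tuft-like ones. Olfactory receptor genes, taken here as a scale of low counts, were lowest in tuft-like replicate 3 (2.54 counts per exon kb) and highest in tuft-like replicate 1 (15.2).

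Of the 57 receptors 56 had enough counts to be tested, and 3 (5.36%) were called, against 2.11% of all genes tested. Tek was higher in tuft-like mTEC, where 1.16% of all genes were called higher, and Axl and Erbb2 were lower, where 0.951% were called lower. Over all genes these shares stand for 378 higher and 309 lower calls, a split that turned to 310 and 612 without tuft-like replicate 3 and was 467 and 276 without tuft-like replicate 1. The other receptors were not called, Kit among them. The estimates were evenly divided, 28 above and 28 below 0, with a median log2 fold change of 0.04 against 0.02 over all genes. In 37 receptors the group with more transcript averaged 10 CPM or above. In 20 of these the 3 libraries of one group all lay above the 3 of the other, 10 with higher and 10 with lower levels in tuft-like mTEC. That is 54.1% of the 37, while 29.0% of all tested genes at this level showed no overlap and 5.55% were called. A two-sided exact permutation test gave p = 0.10 for each of the 20, which is as low as 3 libraries against 3 can go. The number of receptors called depended on the test. DESeq2 called 6 higher and 6 lower, against 4.35% and 3.89% of the 24413 genes to which it gave an FDR, and limma voom called 4 higher and 3 lower, against 1.42% and 1.37% of all genes. At an unadjusted p under 0.05 edgeR gave 9 receptors higher and 8 lower, against 4.38% and 4.59% of all genes. The 57 receptors together took 1787, 2241 and 2085 CPM in the non-tuft-like and 1794, 2352 and 2494 CPM in the tuft-like libraries, so that their summed level overlapped between the groups.

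**Figure D1:**
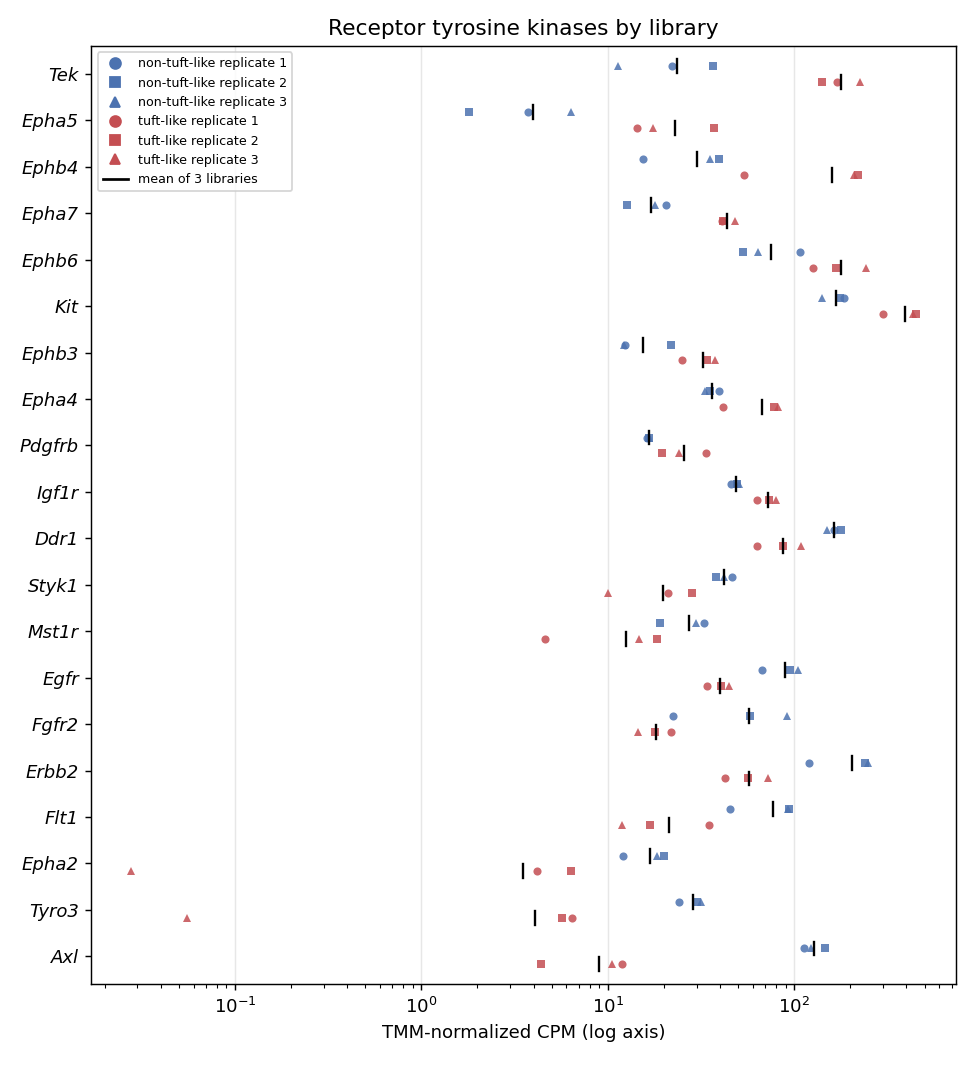
TMM-normalised CPM (log axis) of the 20 receptors that averaged 10 CPM or above in either group and did not overlap between groups, one point per library and a bar at the mean of 3 libraries, ordered by log2 fold change. Tek at the top lies between 142 and 225 CPM in tuft-like libraries against 11.4 to 36.7 CPM in non-tuft-like libraries, Axl at the bottom shows the opposite order, and Epha2 and Tyro3 each have tuft-like replicate 3 far below the other libraries.

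Kit (ENSMUSG00000005672, mm10 chromosome 5, 75574916 to 75656722) was counted at a high level in both populations, including the one sorted for lack of its protein. Its level was 185, 176 and 141 CPM in the non-tuft-like and 301, 451 and 433 CPM in the tuft-like libraries. Every tuft-like library lay above every non-tuft-like one, and tuft-like replicate 1 was the lowest of its group. The means were 167 ± 23.2 and 395 ± 82.1 CPM (SD, n = 3 each). The log2 fold change of 1.24 (SE 0.29), or 2.36-fold, was not called (edgeR FDR 0.0678). The tuft-like cells were gated on the protein that Kit encodes, so this difference is not independent of how the groups were made. In these bulk samples fewer cells with a transcript and less of it per cell cannot be told apart. The call for Kit turned on the processing. It was made in 9 of 15 alternative settings (FDR between 8.98e-05 and 0.388), but with one library left out it was made only without tuft-like replicate 1.

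Cell types known for Kit were looked for beside it. The 7 mast cell markers summed to 5.36, 3.28 and 12.8 CPM in non-tuft-like and 17.2, 11.4 and 0.0829 CPM in tuft-like libraries. In tuft-like replicate 3, which also had the lowest olfactory receptor counts, 6 of the 7 were at 0, Cpa3 and Fcer1a among them. Zeros were also found elsewhere, for Cma1 and Fcer1a in non-tuft-like replicates 1 and 2, Tpsb2 in tuft-like replicate 1 and Cma1 in tuft-like replicate 2. The 6 melanocyte markers summed to at most 19.9 CPM and to 1.44 CPM in tuft-like replicate 3. The 9 lymphoid and progenitor markers reached 114 CPM in tuft-like replicate 1 and 17.8 CPM in tuft-like replicate 3, against 24.7 to 59.8 CPM in the non-tuft-like libraries. The part of such cells in the level of Kit was not tested. Kitl, which encodes the ligand stem cell factor, was low, at 10.6, 16.5 and 10.7 CPM in the non-tuft-like and 7.77, 2.54 and 0.0552 CPM in the tuft-like libraries. The groups of Kitl did not overlap, yet its log2 fold change of -1.87 (SE 1.20) was far from the threshold (edgeR FDR 0.949).

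Of 20 genes whose products act with Kit, 3 were called higher and 1 lower in tuft-like mTEC, against 1.16% and 0.951% of all genes. The median log2 fold change was 0.15. This list was chosen with earlier results of these data known, so its counts are not independent of them. Ptpn6, the phosphatase SHP-1 that restrains Kit signalling, stood at 129.9, 134 and 113 CPM in the non-tuft-like and 718, 1120 and 1166 CPM in the tuft-like libraries, with no overlap, and its log2 fold change was 2.99 (SE 0.34, edgeR FDR 0.00133). The Src family kinase gene Lyn rose 3.99-fold, with means of 31.5 ± 14.2 and 126 ± 37.9 CPM (SD, n = 3, edgeR FDR 0.034). Fes, which encodes a cytoplasmic tyrosine kinase that responds to Kit, rose from 32.9 ± 7.75 to 142 ± 63.8 CPM, by 2.11 on the log2 scale (edgeR FDR 0.0157). Stat5a, a transcription factor that Kit and cytokine receptors activate, went the other way, at 206, 184 and 172 CPM in the non-tuft-like and 37.5, 42.7 and 57.9 CPM in the tuft-like libraries, and fell by 2.03 (edgeR FDR 0.00408). The other receptors of the Kit class were much lower. Pdgfrb, a receptor of pericytes and fibroblasts, had 16.3, 16.7 and 16.7 CPM in the non-tuft-like and 33.9, 19.5 and 24.0 CPM in the tuft-like libraries, which did not overlap (log2 fold change 0.64, edgeR FDR 0.941). Pdgfra, Csf1r and Flt3, the last 2 receptors of macrophages and of dendritic cell and blood progenitors, stayed at or below 25.0 CPM in every library and overlapped between the groups.

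Tek, which encodes the angiopoietin receptor Tie2 and is known from endothelium, was the only receptor called higher. Tek (ENSMUSG00000006386, mm10 chromosome 4, 94739289 to 94874976) had 22.2, 36.7 and 11.4 CPM in the non-tuft-like and 169, 142 and 225 CPM in the tuft-like libraries. The lowest tuft-like library was well above the highest non-tuft-like one. Its means were 23.4 ± 12.7 and 179 ± 42.4 CPM (SD, n = 3 each), a log2 fold change of 2.93 (SE 0.43, edgeR FDR 0.00565) or 7.62-fold. Tek kept its call in all 15 alternative settings, with an FDR of at most 0.0223 whichever library was left out. Tie1, the related receptor that pairs with Tek, had 0.347, 1.81 and 5.24 CPM in the non-tuft-like and 26.6, 4.62 and 0.331 CPM in the tuft-like libraries and overlapped between groups (log2 fold change 2.09, edgeR FDR 0.996). Among the ligands, Angpt1 was at 1.07 to 7.41 CPM in the non-tuft-like and 3.04 to 11.6 CPM in the tuft-like libraries, and Angpt2 at 14.5 to 46.9 and 0.0829 to 9.63 CPM. Neither was called (edgeR FDR 1 and 0.553).

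The other endothelial genes were set beside Tek library by library. Pecam1, which encodes CD31, had 8.99, 7.98 and 5.02 CPM in the non-tuft-like and 106, 8.16 and 3.07 CPM in the tuft-like libraries, so that only tuft-like replicate 1 was high. Cdh5, the cadherin of endothelial junctions, was at 11.1 CPM in tuft-like replicate 1 and at 3.11 CPM or less elsewhere. Cldn5 and Emcn were at 0 in tuft-like replicate 3, the library with the highest Tek and the lowest olfactory receptor counts. Cldn5 was also at 0 in non-tuft-like replicate 2. Esam, a cell adhesion gene of endothelium and platelets, had 23.7, 5.71 and 8.07 CPM in the non-tuft-like and 52.2, 54.3 and 101 CPM in the tuft-like libraries, and its log2 fold change was 2.47 (edgeR FDR 0.0522). The 6 endothelial markers outside the receptor family summed to 147 to 226 CPM in the non-tuft-like and 157 to 327 CPM in the tuft-like libraries. Vwf was the highest of them in every library, and the sum, of which it was the largest part, overlapped between the groups. The median log2 fold change of all 9 endothelial markers, Tek among them, was 1.15, against 0.02 over all genes. Esam was called in 10 of 15 alternative settings. Of all 9 endothelial markers edgeR called Tek, where 1.16% of all genes were called higher. At an unadjusted p under 0.05 edgeR gave 3 higher, against 4.38% of all genes. DESeq2 and limma voom each called 2 higher, against 4.35% and 1.42% of all genes. The part of endothelial RNA in the difference of Tek was not tested.

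**Figure D2:**
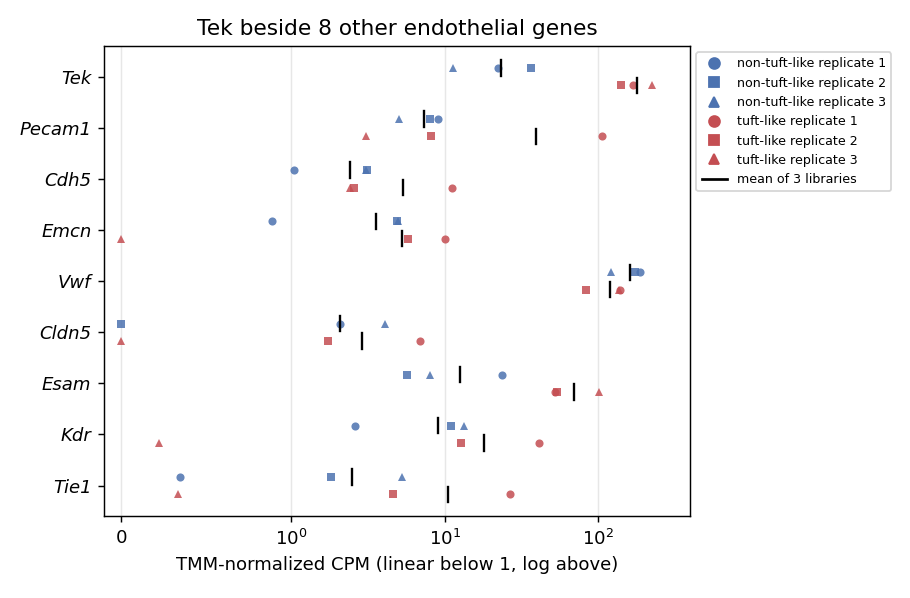
TMM-normalised CPM of Tek and 8 other endothelial genes in each library (axis linear below 1 and logarithmic above), with a bar at the mean of 3 libraries. Tek is high in all 3 tuft-like libraries, while Pecam1 is high in tuft-like replicate 1 only (106 CPM). Cldn5 and Emcn are at 0 in tuft-like replicate 3, and Cldn5 also in non-tuft-like replicate 2.

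Axl showed the largest difference of the 3 called receptors. With Tyro3 and Mertk it makes up the TAM receptors, which bind Gas6 and protein S and are known for clearing dying cells and for damping inflammation. Axl (ENSMUSG00000002602, mm10 chromosome 7, 25757273 to 25788705) had 113, 147 and 122 CPM in the non-tuft-like and 11.9, 4.39 and 10.5 CPM in the tuft-like libraries. The highest tuft-like library stayed far below the lowest non-tuft-like one. The means were 128 ± 17.5 and 8.92 ± 3.99 CPM (SD, n = 3 each), and Axl fell by 3.84 on the log2 scale (SE 0.41, edgeR FDR 0.00105), or 14.3-fold. All 15 alternative settings called it, with FDR values from 1.2e-15 to 0.00392. Tyro3 was lower in every tuft-like library as well, at 24.2, 30.2 and 31.7 CPM against 6.45, 5.67 and 0.0552 CPM. The last of these values is 2 counts, the spread between the tuft-like libraries was wide, and the log2 fold change of -2.82 (SE 1.08) was not called (edgeR FDR 0.376), though it was without tuft-like replicate 3. Mertk, the TAM receptor of macrophages, was at or below 9.41 CPM in every library and overlapped.

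The TAM ligands were counted in both populations. Gas6 had 181, 543 and 489 CPM in the non-tuft-like and 81.8, 104 and 279.6 CPM in the tuft-like libraries, which overlapped (log2 fold change -1.38, edgeR FDR 0.385). Pros1, encoding protein S, had 13.4 to 51.2 and 6.05 to 35.3 CPM. Macrophages and dendritic cells are also known to carry Axl or Mertk, and their markers outside the receptor family summed to 213 to 357 CPM in the non-tuft-like and 143 to 206 CPM in the tuft-like libraries. Of the 9 markers of this list edgeR called 1, Cd68, which was lower in tuft-like mTEC, where 0.951% of all genes were called lower. Its means were 39.3 ± 8.47 and 3.99 ± 0.428 CPM (SD, n = 3), which is 9.86-fold (edgeR FDR 0.0028). The other markers of the list were not called, and the list median was -0.51, against 0.02 over all genes. Fcgr1 was at 0 in non-tuft-like replicates 1 and 2, and Fcgr1, Itgam and Itgax were at 0 in tuft-like replicate 3. The part of such cells in the difference of Axl was not tested.

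The ErbB receptors bind the epidermal growth factor family and the neuregulins, and Erbb2, which has no ligand of its own, is the partner that the other chains prefer. Erbb2 (ENSMUSG00000062312, mm10 chromosome 11, 98412470 to 98437716) had 121, 239.8 and 249.6 CPM in the non-tuft-like and 42.3, 56.2 and 72.8 CPM in the tuft-like libraries. The groups did not overlap, although non-tuft-like replicate 1 was well below the other two of its group. The means were 203 ± 71.7 and 57.1 ± 15.3 CPM (SD, n = 3 each), and Erbb2 fell by 1.83 on the log2 scale (SE 0.36, edgeR FDR 0.0265), or 3.56-fold. The call was kept in 11 of 15 alternative settings and lost whenever non-tuft-like replicate 2, non-tuft-like replicate 3, tuft-like replicate 1 or tuft-like replicate 2 was left out (FDR up to 0.126). Exons of 13 receptors share bases with a gene on the other strand, by 9 bp for Erbb2, 33 bp for Ephb4 and 216 bp for Ddr1, and those of Fgfr2 share 314 bp with another gene on their own strand.

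The related receptor genes gave lower or like values. Egfr, the receptor for epidermal growth factor, had 67.3, 95.0 and 105 CPM in the non-tuft-like and 34.1, 40.5 and 44.9 CPM in the tuft-like libraries. No overlap was seen, and the log2 fold change was -1.16 (SE 0.29, edgeR FDR 0.0838). It was called in 5 of 15 alternative settings, DESeq2 among them. Erbb3, a neuregulin receptor, averaged 139 ± 29.9 and 94.1 ± 33.2 CPM (SD, n = 3), and its libraries overlapped (log2 fold change -0.56, edgeR FDR 0.885), and Erbb4 stayed at or below 7.98 CPM. Of their ligands, Nrg4, a neuregulin, was called higher in tuft-like mTEC, at 24.4, 16.1 and 15.2 CPM against 54.9, 78.7 and 103.8 CPM (log2 fold change 2.09, SE 0.35, edgeR FDR 0.0123). Tgfa, an Egfr ligand, had 111, 71.7 and 77.8 CPM in the non-tuft-like and 34.5, 43.8 and 17.6 CPM in the tuft-like libraries, with no overlap and no call (log2 fold change -1.44, edgeR FDR 0.0985).

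The Eph receptors, the largest subfamily, bind ephrins on neighbouring cells and are known for cell repulsion and boundary formation. Of the 14 Eph receptors 9 had estimates above 0 and 5 below. Of the 8 with at least 10 CPM, 6 lay higher in every tuft-like library than in any non-tuft-like one, which were Epha4, Epha5, Epha7, Ephb3, Ephb4 and Ephb6, and Epha2 lay lower, where 12.5% and 16.5% of all genes at this level did so. edgeR called 0 of the 14, with 6 higher and 0 lower at an unadjusted p under 0.05 (4.38% and 4.59% of all genes), and DESeq2 called 4, all higher (4.35% of all genes). Ephb4, the receptor for ephrin-B2 and a marker of veins, came closest. It had 15.4, 39.8 and 35.5 CPM in the non-tuft-like and 53.9, 219 and 208 CPM in the tuft-like libraries. Tuft-like replicate 1 was near the non-tuft-like range and the other two were far above it. Its log2 fold change was 2.41 (SE 0.54, edgeR FDR 0.0523), and 10 of 15 alternative settings called it, among them the fit without tuft-like replicate 1 (FDR 0.00464).

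The other Eph receptors followed at smaller sizes or lower levels. Ephb6, a member without an active kinase that T cells also carry, had 108, 53.0 and 64.0 CPM in the non-tuft-like and 127, 167 and 243 CPM in the tuft-like libraries, a log2 fold change of 1.26 (SE 0.36, edgeR FDR 0.146). Epha7 had 20.4, 12.6 and 18.0 against 40.8, 41.7 and 47.9 CPM (log2 fold change 1.35, SE 0.35, edgeR FDR 0.0931), with both groups close together within themselves. Epha5 had 3.76, 1.81 and 6.39 against 14.4, 37.0 and 17.6 CPM (log2 fold change 2.53, SE 0.67, edgeR FDR 0.105). Epha4 had 39.5, 35.3 and 33.3 CPM against 41.3, 77.8 and 82.0 CPM, a log2 fold change of 0.90 (edgeR FDR 0.328) with tuft-like replicate 1 just above the non-tuft-like libraries. Ephb3 had 12.4, 22.0 and 12.2 CPM against 25.0, 34.2 and 37.7 CPM (log2 fold change 1.06, edgeR FDR 0.395). Epha2, known from epithelial junctions, had 12.1, 20.03 and 18.3 CPM against 4.17, 6.31 and 0.0276 CPM, the last being 1 count (log2 fold change -2.26, SE 1.19, edgeR FDR 0.743). Epha1 was high in both groups and overlapped, at 60.0, 123 and 94.0 against 43.6, 76.4 and 106 CPM.

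Ephrins are the ligands of this subfamily. Efna3 fell in tuft-like mTEC, from 20.1, 80.6 and 91.1 CPM to 1.32, 7.78 and 8.78 CPM, a log2 fold change of -3.42 (SE 0.75, edgeR FDR 0.0466). The call of Efna3 was made in 9 of 15 alternative settings. Efnb2, the ligand of Ephb4, had 11.7 to 25.4 CPM in the non-tuft-like and 11.2 to 15.8 CPM in the tuft-like libraries and overlapped (log2 fold change -0.48, edgeR FDR 1).

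**Figure D3:**
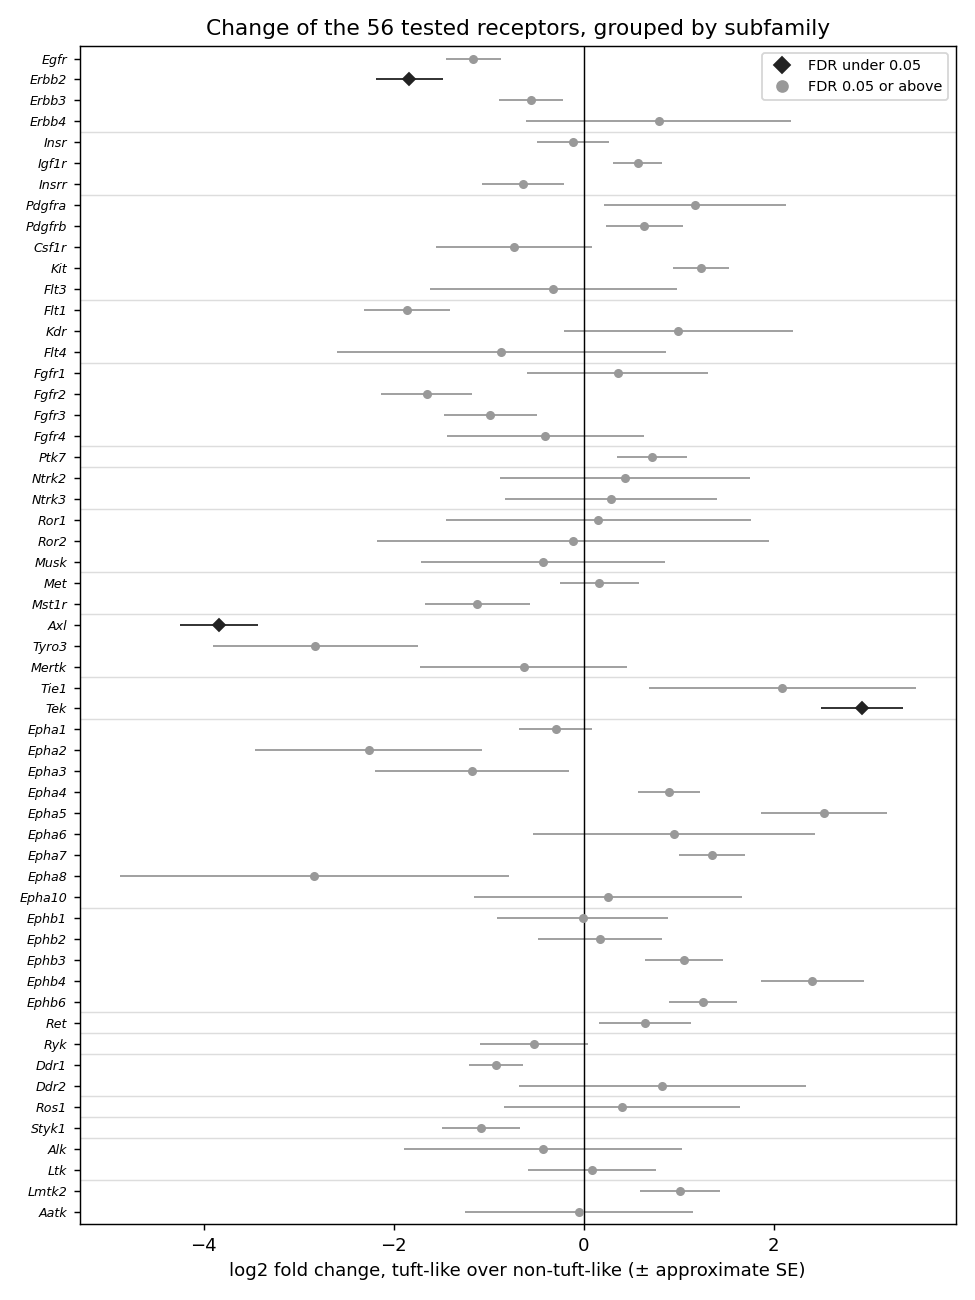
Log2 fold change (tuft-like over non-tuft-like) of the 56 tested receptors with approximate standard errors as bars, grouped by subfamily between grey lines, and diamonds where the edgeR FDR was under 0.05. The diamonds are Erbb2 (-1.83), Axl (-3.84) and Tek (2.93), Kit stands at 1.24, and the widest bars belong to receptors with low counts.

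Among the receptors for vascular endothelial growth factor, Flt1 had 45.3, 93.6 and 92.2 CPM in the non-tuft-like and 34.9, 16.8 and 11.99 CPM in the tuft-like libraries. Its groups did not overlap, and its log2 fold change was -1.86 (SE 0.46, edgeR FDR 0.0773), called in 6 of 15 alternative settings. Kdr, the main signalling receptor of this group, was at 2.62, 11.0 and 13.4 against 41.2, 12.7 and 0.221 CPM, with tuft-like replicates 1 and 3 at opposite ends, and Flt4, the lymphatic receptor, stayed at or below 7.72 CPM. Pgf, a ligand of Flt1, had 24.1, 9.33 and 23.4 CPM against 0.785, 3.63 and 1.93 CPM (log2 fold change -3.16, edgeR FDR 0.0823). Vegfa, which binds Flt1 and Kdr, had 24.2, 36.6 and 35.9 against 24.3, 68.0 and 105 CPM and overlapped.

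Fgfr2, whose epithelial form is needed for growth of the thymic epithelium, had 22.4, 58.0 and 91.1 CPM in the non-tuft-like and 21.9, 18.0 and 14.6 CPM in the tuft-like libraries. Non-tuft-like replicate 1 was only just above the tuft-like libraries, and the log2 fold change was -1.65 (SE 0.48, edgeR FDR 0.154). Fgfr3 had 14.6, 28.5 and 31.8 against 13.3, 16.1 and 8.45 CPM and overlapped, Fgfr1 ranged from 1.44 to 26.9 CPM over the 6 libraries, and Fgfr4 stayed at or below 10.7 CPM. Igf1r, the receptor for insulin-like growth factor, had 45.7, 49.3 and 50.8 against 63.4, 73.0 and 79.7 CPM, a small shift without overlap (log2 fold change 0.57, SE 0.26, edgeR FDR 0.581). Its ligand gene Igf1 fell, from 35.6, 29.6 and 42.0 CPM to 11.4, 6.84 and 10.9 CPM (log2 fold change -1.88, SE 0.41, edgeR FDR 0.0473), a call made in 9 of 15 alternative settings. Insr, the insulin receptor, and Insrr, a related receptor that responds to alkaline medium, ranged from 67.7 to 149.9 and from 39.2 to 140.1 CPM and overlapped.

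Ddr1, a collagen receptor of epithelia, had 163, 178.5 and 150.5 CPM in the non-tuft-like and 63.1, 87.3 and 109 CPM in the tuft-like libraries. These did not overlap, and the log2 fold change was -0.92 (SE 0.29, edgeR FDR 0.198), while Ddr2, known from connective tissue, was at or below 13.6 CPM. Styk1, an atypical receptor with little known of its ligand, had 46.2, 37.9 and 41.8 against 21.1, 28.3 and 10.1 CPM (log2 fold change -1.08, edgeR FDR 0.381). Mst1r, the receptor for macrophage stimulating protein, had 32.6, 19.1 and 29.9 against 4.59, 18.3 and 14.7 CPM, where tuft-like replicate 2 nearly reached non-tuft-like replicate 2 (log2 fold change -1.12, edgeR FDR 0.663). Its relative Met, the receptor for hepatocyte growth factor, overlapped at 20.9, 30.1 and 23.6 against 34.5, 34.7 and 14.6 CPM. Lmtk2 had 33.8, 72.6 and 58.6 against 52.1, 142 and 139 CPM (log2 fold change 1.02, edgeR FDR 0.473), Ptk7 18.7, 31.4 and 35.4 against 34.7, 61.5 and 44.8 CPM (0.72, edgeR FDR 0.707) and Ret, the receptor for the glial cell line-derived factors, 21.1, 33.9 and 23.5 against 16.6, 37.6 and 68.2 CPM (0.64, edgeR FDR 1). In these 3 the groups overlapped, as they did in Ryk, a Wnt receptor, at 10.8 to 23.5 and 6.24 to 14.3 CPM.

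The order of the receptors was compared as CPM per kb of exon, so that genes of different length can be set side by side. In tuft-like mTEC the highest means were those of Ephb6 (47.4 ± 15.7, SD, n = 3), Kit (44.3 ± 9.21), Tek (37.9 ± 9.00) and Ephb4 (34.6 ± 19.9 CPM per kb), then Epha1 (19.2), Ddr1 (18.1), Erbb3 (15.7) and Lmtk2 (13.7). Each of these overlapped the next in its 3 libraries, so that the order of neighbours is not set. Ephb6, Kit and Tek, at 30.1 CPM per kb or above in every tuft-like library, did lie clear of Epha1 (at most 26.9). In non-tuft-like mTEC the order began with Erbb2 (39.0 ± 13.8), Ddr1 (34.4 ± 2.93) and Axl (25.3 ± 3.47 CPM per kb). Ddr1 lay clear of Axl, but Erbb2, at 23.2 CPM per kb in its lowest library, reached into the range of Axl (22.5 to 29.2). Epha1 (23.5), Erbb3 (23.0), Ephb6 (19.9) and Kit (18.8) came next, each overlapping the one after it. Kit thus ranked 2 among the receptors in tuft-like and 7 in non-tuft-like mTEC, while Axl, at rank 3 in non-tuft-like mTEC, was not among the 12 highest in tuft-like mTEC.

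**Figure D4:**
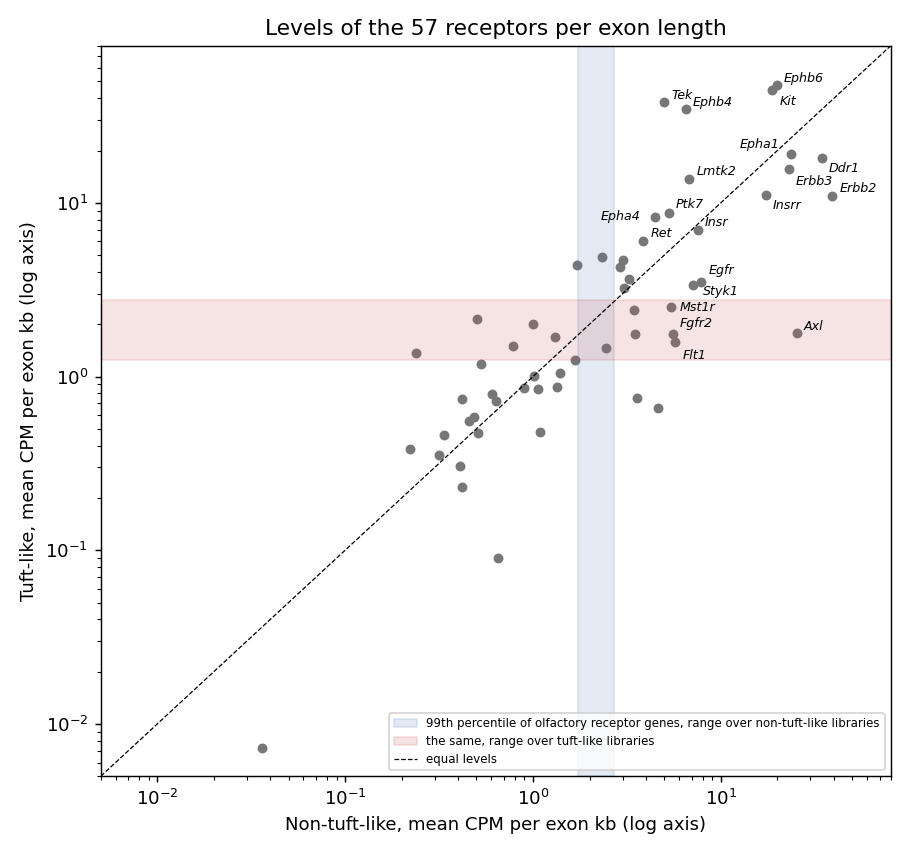
Mean CPM per exon kb of the 57 receptors in non-tuft-like (x axis) and tuft-like mTEC (y axis), both log axes, with a dashed line at equal levels and bands for the range over 3 libraries of the 99th percentile of olfactory receptor genes. Tek, Ephb4, Kit and Ephb6 are the 4 highest above the line, at 34.6 to 47.4 CPM per kb in tuft-like mTEC, Axl and Erbb2 lie below it, and many receptors lie within or under the bands.

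To tell receptors with a clear level from those near the floor, each was set beside the 99th percentile of 1134 olfactory receptor genes in the same library, which was 1.24 to 2.75 CPM per kb. All 3 libraries of both groups exceeded it for 17 receptors, which included Kit, Ephb4, Ephb6, Erbb2, Erbb3, Egfr, Ddr1 and Insr. It was exceeded throughout tuft-like mTEC only for 3, Tek, Epha7 and Ephb3, and throughout non-tuft-like mTEC only for 9, which were Flt1, Fgfr2, Fgfr3, Mst1r, Axl, Tyro3, Epha2, Ret and Ryk. The other 28 did not exceed it throughout either group. They included the nerve growth factor relatives Ntrk2 and Ntrk3, Ror1, Ror2, the muscle receptor Musk, Alk, Ltk, Ros1, Aatk and the untested Lmtk3. Epha5 was among them too, at means of 0.238 (non-tuft-like) and 1.37 CPM per kb (tuft-like), although its groups did not overlap. The level of these 28 was spread widely within the tuft-like group. Their median was 8.91 CPM in tuft-like replicate 1 and 0.152 CPM in tuft-like replicate 3, where 20 of them were under 1 CPM, and 3.18 to 6.93 CPM in the non-tuft-like libraries. Tuft-like replicate 3 is the library with the smallest share of reads that fell in no annotated gene and the lowest olfactory receptor counts. The part of such reads in the levels of these 28 receptors was not tested.

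Genes that act around the receptors were counted from 5 lists, which were chosen with earlier results of these data known. Of 52 ligand genes 51 were tested, and 2 were called higher and 2 lower in tuft-like mTEC, against 1.16% and 0.951% of all genes. At an unadjusted p under 0.05 there were 3 higher and 11 lower, against 4.38% and 4.59% of all genes, and the median log2 fold change was -0.38, against 0.02 over all genes. Besides Nrg4, Efna3 and Igf1 the fourth was Bdnf, the ligand of Ntrk2. Bdnf had 17.8, 19.8 and 13.2 CPM in the non-tuft-like and 87.3, 146 and 169 CPM in the tuft-like libraries, with a log2 fold change of 2.98 (SE 0.35, edgeR FDR 0.00152), and all 15 alternative settings called it. Its receptor Ntrk2 was at 6.88, 3.96 and 8.71 against 22.0, 4.41 and 0.0552 CPM and overlapped. Of 9 coreceptor genes edgeR called 1 higher, Gfra2, which presents neurturin to Ret. Gfra2 had 14.1, 24.4 and 22.7 CPM in the non-tuft-like and 70.7, 63.0 and 68.5 CPM in the tuft-like libraries, a log2 fold change of 1.73 (SE 0.32, edgeR FDR 0.0214), and its call was made in 11 of 15 alternative settings.

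Downstream of the receptors most genes were not called. Of all genes 1.16% were called higher, and 4.38% were higher and 4.59% lower at an unadjusted p under 0.05. Of 34 adaptor and effector genes 2 were called higher, with 4 higher and 1 lower at an unadjusted p under 0.05 and a list median of -0.04. Plcg2, the phospholipase C gamma known from blood cells, had 58.4, 56.1 and 61.2 CPM in the non-tuft-like and 350.4, 556 and 427 CPM in the tuft-like libraries, a log2 fold change of 2.92 (SE 0.30, edgeR FDR 0.000886). Dok3, a docking protein of immune cells, rose from 6.42 ± 3.94 to 37.9 ± 9.92 CPM (SD, n = 3), by 2.56 on the log2 scale (edgeR FDR 0.039). Of 23 feedback and negative regulators 2 were called higher, with 2 higher and 3 lower at an unadjusted p under 0.05 and a list median of -0.38. They were Ptpn6, also counted among the Kit partners, and Cblb, a ubiquitin ligase that sends activated receptors for degradation, which had 9.97, 12.2 and 11.6 CPM against 35.8, 42.6 and 89.7 CPM (log2 fold change 2.31, SE 0.42, edgeR FDR 0.0185). The related Cbl and the Sprouty genes were not called.

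**Figure D5:**
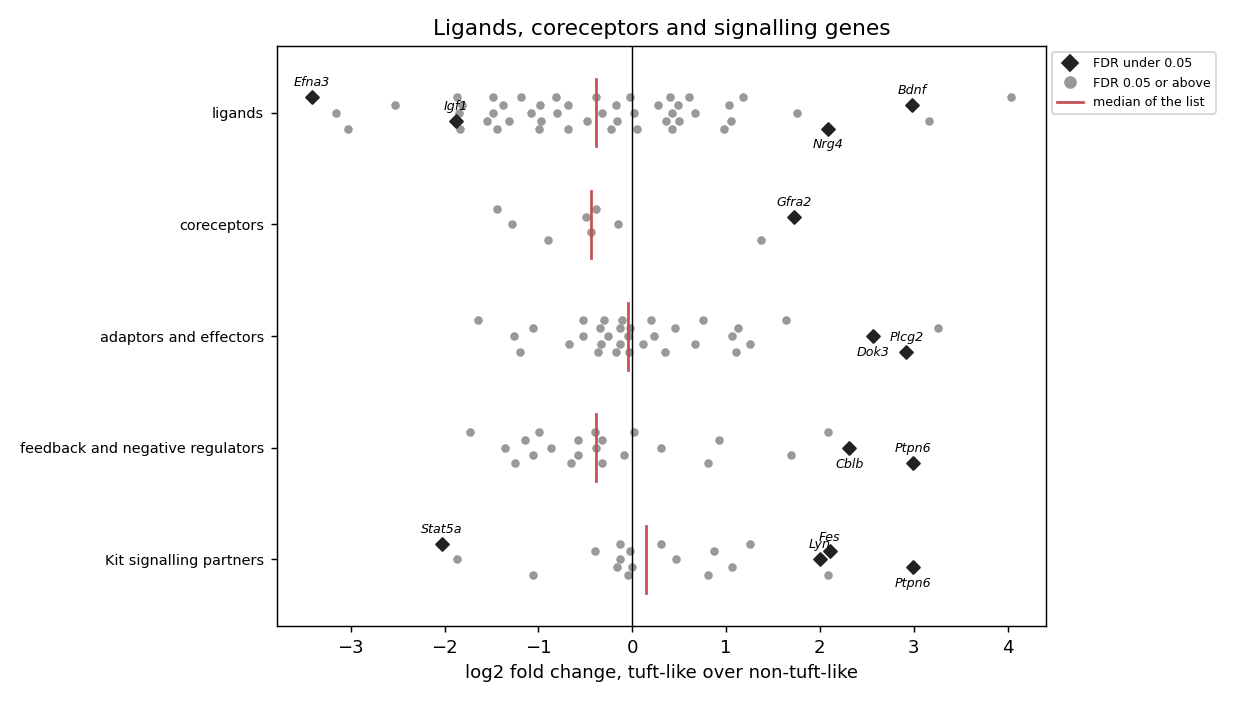
Log2 fold change of the tested genes of 5 lists (ligands, coreceptors, adaptors and effectors, feedback and negative regulators, Kit signalling partners), with black diamonds where the edgeR FDR was under 0.05 and a red line at the list median. The medians lie between -0.44 and 0.15, and the called genes, which include Bdnf, Plcg2 and Ptpn6 on the right and Efna3, Igf1 and Stat5a on the left, stand apart from most of their list.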

How the data were processed

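RNA from sorted tuft-like and non-tuft-like mTEC was sequenced with an ultra-low input protocol. Per the labels and the study's methods the authors used Trimmomatic 0.36 for trimming, STAR 2.7.3a for alignment to mm10 and HTSeq in its intersection-nonempty mode for assignment to genes, and deposited whole read counts per gene without normalisation. The strand setting and annotation release are not given in the sources used here, so genes that overlap on the other strand cannot be told apart. The 92 ERCC rows and 5 rows of reads without a gene were left out. These 5 rows held 27.1% to 66.6% of reads per library, the reads that fell in no annotated gene included. Identifiers were matched to GENCODE M21, which named 99.7% of gene rows.

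Counts were filtered (filterByExpr, minimum count 10, minimum total 15), scaled by TMM and tested with edgeR 4.0.16 in R 4.3.3 by the quasi-likelihood F-test without covariates, with Benjamini-Hochberg adjustment over 32496 genes. SE was taken from the size of the log2 fold change and the F statistic, as their quotient with F under a square root. On simulated data (26834 genes, tuft-like against non-tuft-like) the test recovered 27.1% of true changes at a log2 size of 2 and 45.1% at a size of 4. Alternatives used RLE factors, library size, DESeq2 1.42.0, the likelihood ratio test, limma 3.58.1 (voom), other filters, background subtraction, a replicate block and each library left out. The limit of 3 counts covers counting error only, because the reads carry no molecular identifiers.

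Values per library are given for Kit, each called receptor and each receptor that averaged 10 CPM or above in either group without overlap, and for at most 4 called genes per list, and other genes were added as context after their values were seen. Members, lists and markers were chosen with earlier results of these data known, and the TATA box and GC box searches were added late. Protein sequences were not used here.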

Additional observations from a re-analysis of the deposited data

Results flagged for a closer look

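Reads that fell in no annotated gene, which none of the comparisons above use, made up 61.6% of the reads of tuft-like replicate 1, above every non-tuft-like library (34.4% to 52.5%).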

How the results depend on the processing

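None of the 20 receptors given per library, nor any receptor called under an alternative, changed direction in the 15 alternatives, and the 3 called receptors stayed called in the 9 alternatives that kept all libraries. The number of genes called was 687 in the main test, 1045 with library size only, 2013 with DESeq2, 1236 with the likelihood ratio test, 1127 without a filter, 1519 with a mean of at least 10 CPM, 1055 with background counts subtracted and between 376 and 922 with each library left out in turn (310 higher and 612 lower without tuft-like replicate 3). Receptors called higher in tuft-like mTEC numbered 1 in the main test, 3 with RLE size factors or library size only, 6 with DESeq2 or a mean of at least 10 CPM, 5 with the likelihood ratio test or background counts subtracted, 4 with limma voom or no filter and 1 to 3 with a library left out. Those called lower numbered 2, against 4 with library size only, the likelihood ratio test, a mean of at least 10 CPM or background counts subtracted, 6 with DESeq2, 5 without a filter and 1 to 4 with a library left out. Some alternatives use other numbers of genes or fewer libraries, and the cause of these shifts was not tested. The labels do not say what the replicate numbers stand for. Deviations from the group means of same-numbered libraries correlated at -0.156, -0.061 and -0.326, and 0 libraries correlated best with their own number. Because the libraries also differed in reads that fell in no annotated gene, these values cannot decide whether the numbers mark pairs. With the replicate block edgeR called 737 genes and 2 receptors higher (Tek and Ephb4) and 2 lower (Axl and Erbb2). A biological coefficient of variation of 1.10 and 3 libraries per group limit which differences can pass the test.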
